A study of Mus musculus with 2 samples.

Results

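The cornified envelope is the protein and lipid shell that replaces the plasma membrane of keratinocytes as they die at the surface of the epidermis. Its precursors, among them involucrin (Ivl), loricrin (Lor) and the small proline-rich proteins (Sprr), are joined by transglutaminases (Tgm), enzymes that link glutamine to lysine side chains. Many of these genes lie beside the calcium-binding S100a genes in a cluster called the epidermal differentiation complex, and injured or inflamed skin is known to express several of them at raised levels. The genes described here are those genes together with a few skin proteases, protease inhibitors and antimicrobial proteins. They were taken by symbol: every probe set with a single gene symbol that starts with Sprr, Lce, S100a or Tgm, or that is one of 22 further symbols. This gave 54 of 12422 non-control probe sets and 39 of 8251 genes. The Lce genes and 9 of the 22 symbols (Flg2, Hrnr, Evpl, Cnfn, Sbsn, Spink5, Stfa1, Stfa2 and Stfa3) matched none of them and are not analysed here. Of those genes, 34 lay above the signal floor of 246.7 on at least 1 array and are called measured, 33 of them on both arrays, and 5 were at the floor on both.

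The series compared skin of newborn mice homozygous for loss of keratin 5 (K5-/-, the knockout) with skin of newborn wild type mice, as a model of the blistering disorder epidermolysis bullosa simplex. RNA of 6 animals was pooled for each genotype and each pool was read on 1 Affymetrix array, so there are no replicates and no test. Strain and the design of the deleted allele are not given in the sources used here. Every value below compares these 2 arrays, and in pooled tissue a change in the number of cells of a type cannot be told apart from a change in RNA per cell. The labels name epidermis as the source while the protocol describes skin, and markers of dermis (all 9 on the array measured) and skeletal muscle (all 11 on the array measured) were present beside suprabasal keratinocyte genes such as Krt1, with 50250 in knockout and 41396 in wild type skin. The targeted gene did not check the labels, since Krt5 read 81.2 in knockout and 46.6 in wild type skin, and Krt14 and Krt15, its fellow basal keratins, were also under the floor on both arrays.

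As a whole the group lay where the rest of the genes lay. The median log2 ratio of knockout over wild type was 0.03 over the 34 measured members and 0.04 over all 5976 measured genes. A ratio above 0 was found for 20 members and one below 0 for 14, and 53.9% of all measured genes had a ratio above 0. The 3 genes Sprr3, Sprr1a and Ivl, close neighbours on chromosome 3, stood at least 2-fold higher in knockout skin, and no member was at least 2-fold lower. The share of measured genes at least 2-fold higher was 1.54%, and at least 2-fold lower 0.703% (1.33% and 0.974% with quantile normalization). At the smaller size of 1.5-fold, 6 members were higher, against 7.63% of measured genes, and 1 member, Camp, was lower, against 5.27%.

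The only spread that could be had was that between probe sets of the same gene, whose log2 ratios had a standard deviation of 0.30 (838 genes). It holds no variation between animals and no error of a pool or array that moves all probe sets of a gene together. The value was taken over all signal levels above the floor. Most members lay inside it: 24 of 34, or 70.6%, had a log2 ratio smaller in size than 1 standard deviation, against 58.3% of all measured genes. Beyond 2 standard deviations (0.60) lay 6 members on the higher side, namely Sprr3, Ivl, Sprr1a, Rptn, Sprr2h and S100a3, and Camp on the lower side. Of all measured genes, 7.43% and 4.95% lay that far out on the higher and the lower side.

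**Figure D1:**
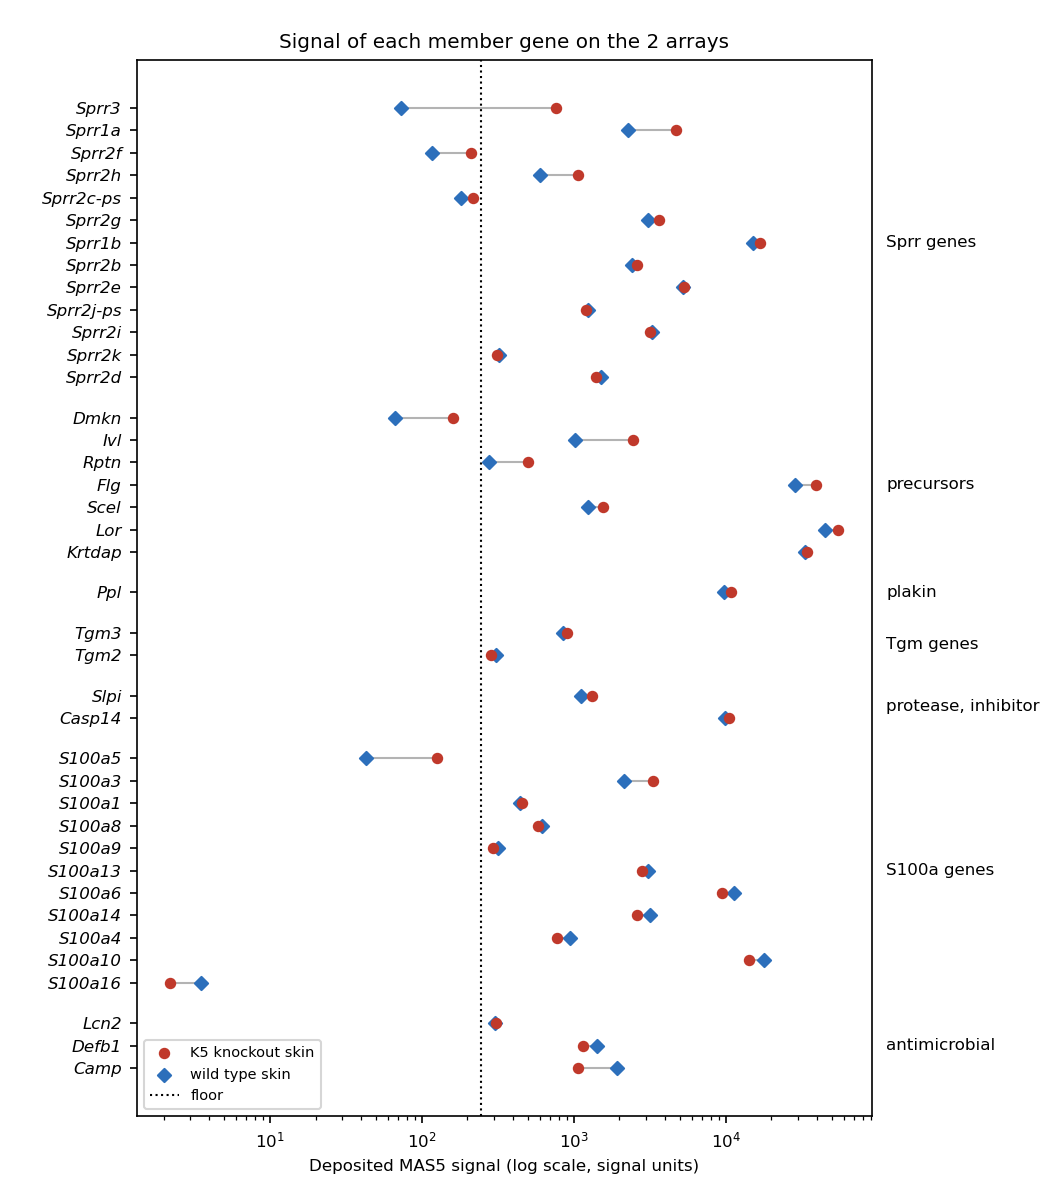
Deposited MAS5 signal of each of the 39 genes on the knockout array (red circles) and on the wild type array (blue diamonds), on a log axis in signal units, grouped by role, with the floor of 246.7 as a dotted line. For most genes the points nearly coincide, while Sprr3 (759.7 in knockout, 73.1 in wild type), Ivl (2461 and 1020) and Camp (1075 and 1922) lie apart.

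The promoter windows of the 3 genes at least 2-fold higher are shown first, with those of Sprr1b and Sprr2h, which are family members that were not. Each window runs from 250 bases before to 50 bases after the annotated gene start, on the coding strand, and comes from RefSeq on assembly GRCm38.p6. Capitals mark the letters TGANTCA, in which N is any base, and TATAAA, the TATA box, both searched on both strands. TGANTCA is looser than the consensus bound by AP-1 (Fos and Jun family) factors, TGACTCA or TGAGTCA. The match in Sprr1b is TGAATCA, which is outside that consensus. Matches to TGANTCA are called AP-1 letters below. The windows are chr3:92458671-92458970 (minus strand) for Sprr3, chr3:92485832-92486131 (minus) for Sprr1a, chr3:92573686-92573985 (minus) for Ivl, chr3:92438730-92439029 (minus) for Sprr1b and chr3:92385435-92385734 (plus) for Sprr2h.
Sprr3: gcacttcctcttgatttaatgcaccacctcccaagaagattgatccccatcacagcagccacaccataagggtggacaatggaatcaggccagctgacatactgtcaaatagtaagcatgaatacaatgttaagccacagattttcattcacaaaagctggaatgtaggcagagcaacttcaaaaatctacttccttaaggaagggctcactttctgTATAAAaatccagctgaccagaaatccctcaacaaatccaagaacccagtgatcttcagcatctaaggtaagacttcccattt
Sprr1a: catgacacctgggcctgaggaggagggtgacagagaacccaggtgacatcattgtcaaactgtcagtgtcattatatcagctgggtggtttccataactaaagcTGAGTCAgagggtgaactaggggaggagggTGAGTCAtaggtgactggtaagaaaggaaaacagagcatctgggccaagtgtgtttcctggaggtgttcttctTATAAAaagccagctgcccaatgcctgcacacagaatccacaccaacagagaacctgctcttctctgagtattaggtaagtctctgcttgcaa
Ivl: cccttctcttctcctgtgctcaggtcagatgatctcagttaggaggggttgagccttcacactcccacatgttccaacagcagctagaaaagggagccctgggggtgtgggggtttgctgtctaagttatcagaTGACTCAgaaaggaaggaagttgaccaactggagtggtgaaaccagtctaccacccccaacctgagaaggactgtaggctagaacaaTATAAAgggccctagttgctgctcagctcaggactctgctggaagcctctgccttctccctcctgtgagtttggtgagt
Sprr1b: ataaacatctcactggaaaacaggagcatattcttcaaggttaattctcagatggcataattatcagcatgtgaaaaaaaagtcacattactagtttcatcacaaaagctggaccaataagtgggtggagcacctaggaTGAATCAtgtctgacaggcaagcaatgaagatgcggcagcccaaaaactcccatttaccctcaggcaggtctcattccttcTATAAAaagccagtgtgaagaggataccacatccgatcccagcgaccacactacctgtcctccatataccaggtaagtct
Sprr2h: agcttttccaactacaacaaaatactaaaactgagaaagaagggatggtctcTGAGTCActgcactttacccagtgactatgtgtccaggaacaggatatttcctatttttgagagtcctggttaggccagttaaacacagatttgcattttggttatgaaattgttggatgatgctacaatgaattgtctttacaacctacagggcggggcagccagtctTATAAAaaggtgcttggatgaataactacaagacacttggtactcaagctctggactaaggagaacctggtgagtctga

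The AP-1 letters start 116 bases before the gene start in Ivl, 146 and 116 bases before it in Sprr1a, 111 in Sprr1b and 198 in Sprr2h. In Sprr3 these letters are not in the window, whereas TATAAA is found 33 bases before its start. A promoter window was available for 31 of the 39 genes, and 17 of these genes had the AP-1 letters in at least 1 window. Counted by window, 51.4% of 37 member windows held them, against 7.81% of all 32851 windows, and TATAAA was in 54.1% against 13.6%. Some genes have several windows, which can overlap and hold the same site. The matched windows of Dmkn start at 30763506, 30763508 and 30776155 on chromosome 7, and the several windows of S100a3 held no AP-1 letters. Windows of related genes are not independent, because the 7 Sprr2 windows were 64% to 89.3% identical to each other (percent of the window after global alignment) and all held the AP-1 letters 182 to 198 bases before the start. A match is a description of the sequence and not of binding.

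Log2 ratios covered a wide range both with and without the match. Of the matched genes, Sprr2b, Sprr2e, Sprr2i and Sprr2k were read only by probe sets shared within a sequence family. Among the 14 measured genes with the AP-1 letters, log2 ratios ran from -0.11 to 1.27 with a median of 0.22, 11 were above 0 and 4 were at least 1.5-fold higher. Among the 13 measured genes with a window and no match, they ran from -0.84 to 1.62 with a median of 0.03, 7 were above 0 and 2 were at least 1.5-fold higher. The value of 1.62 is the lower bound of Sprr3 and depends on the floor. Of all measured genes, 53.9% were above 0 and 7.63% were at least 1.5-fold higher. On the same arrays the AP-1 genes themselves were higher in knockout skin for 7 of 8, with a median log2 ratio of 1.29; Fos read 20145 in knockout and 6300 in wild type skin. The part of these factors in the envelope genes was not tested.

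Among the Sprr genes, which encode short proline-rich proteins that bridge other envelope proteins, 3 were at least 1.5-fold higher in knockout skin. Of 13 genes, 11 were measured, 7 with a log2 ratio above 0 and 4 below (Sprr2i, at -0.05, turned to 0.01 with quantile normalization), and the median was 0.12. Sprr3, best known from the oral and oesophageal lining, read 759.7 in knockout and 73.1 in wild type skin. Because the wild type value is under the floor, the ratio is a lower bound: at least 3.08-fold higher with this floor. Sprr1a, a member known to respond to injury, read 4683 in knockout and 2290 in wild type skin, 2.05-fold higher, and its ratio was 69th from the highest among the 5518 genes above the floor on both arrays. Sprr2h, whose protein belongs to the largest branch of the family and whose probe set carries no suffix, read 1073 in knockout and 604.6 in wild type skin, 1.78-fold higher.

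Both calls at 2-fold have a limit. A floor at the 60th percentile (659.8) gave Sprr3 a bound of 0.20 on the log2 scale, and one at the 25th (86.9) gave 3.13. Sprr1a had a log2 ratio of 0.96 when a pseudocount replaced the floor, and it was at least 2-fold higher under the 6 other alternatives that gave it a value. Of these, only quantile normalization (1.06) and the lowess correction (1.09) could change its ratio. Sprr3 is expressed with Krt4 and Krt13 in mucosal epithelia. Of the 3 measured markers of oral, oesophageal and corneal epithelium, Krt4 and Krt13 were higher in knockout skin and Krt12 was lower. Krt4 read 1393 in knockout and 625.2 in wild type skin, 2.23-fold higher. Krt13 read 297.3 and 111.4, at least 1.21-fold higher because the wild type value lies under the floor. Krt12 read 284.6 in knockout skin, close to the floor, and 1150.5 in wild type skin. With Krt12 counted in, the summed signal of the 3 was 1975 in knockout and 1887 in wild type skin. The part of these markers in the Sprr3 value was not tested.

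The other measured Sprr genes were each less than 1.5-fold different. Sprr1b, the close relative of Sprr1a, has 2 probe sets, which read 16966 and 3195 in knockout skin, against 15239 and 2207 in wild type skin, for log2 ratios of 0.15 and 0.53. Sprr2g read 3631 in knockout and 3101 in wild type skin, Sprr2b 2627 and 2426, and Sprr2e 5325 and 5222. Sprr2d read 1413 in knockout and 1522 in wild type skin, Sprr2i 3162 and 3276, and Sprr2k 312.2 and 324.3. The pseudogene Sprr2j-ps read 1211 in knockout and 1245 in wild type skin. Sprr2f, at 209.8 and 116.1, and the pseudogene Sprr2c-ps, at 215.9 and 181.1, were at the floor on both arrays. The measured Sprr2 genes thus ran from -0.11 to 0.83 on the log2 scale with a median of -0.01.

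The Sprr genes were read by different types of probe set. On this array design a suffix f marks a probe set whose probes are shared within a sequence family, and such a probe set may read several Sprr2 transcripts at once. The 7 measured Sprr probe sets with that suffix had a median log2 ratio of 0.03, from -0.05 to 0.53. The 4 plain ones, of Sprr3, Sprr1a, Sprr2h and Sprr2d, had a median of 0.93, from -0.11 to 1.62. None of these 4 genes has a probe set with the suffix f, so probe type and gene cannot be told apart in this comparison. Single values of Sprr2 genes on shared probe sets are uncertain, since such a probe set may read several transcripts. The Sprr median is 0.93 where plain probe sets alone are used. A further 3 probe sets, for Sprr2a copies and S100a11, carry several gene symbols and were left out by the rule.

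**Figure D2:**
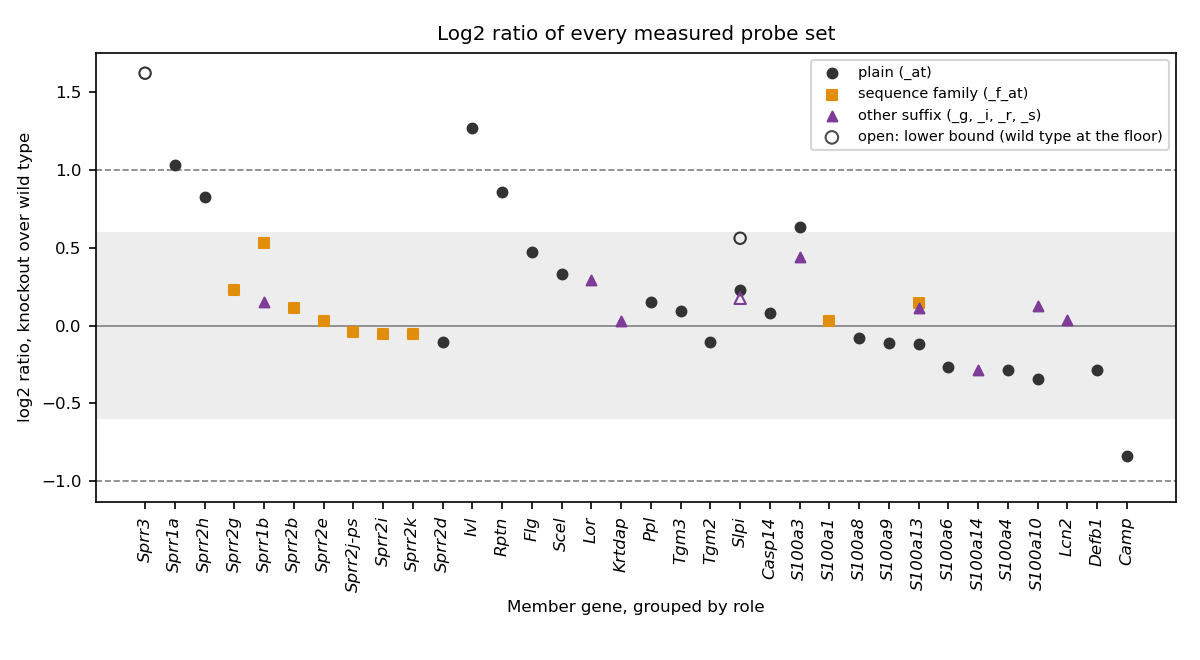
Log2 ratio of knockout over wild type for each of the 41 measured probe sets, by gene and role, with marker shape for the probe set suffix, open symbols for lower bounds, dashed lines at 2-fold and grey for 2 standard deviations between probe sets of a gene. The probe sets at or above 2-fold, of Sprr3, Ivl and Sprr1a, are all plain ones, while the shared Sprr2 probe sets lie near 0.

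All 6 measured genes grouped as precursors outside the gene families had higher signals in knockout skin, with a median log2 ratio of 0.40. Of all measured genes, 53.9% had a ratio above 0. Krtdap, which encodes a secreted protein and was placed in this group, turned to -0.06 with quantile normalization. Involucrin (Ivl), an early scaffold of the envelope, read 2461 in knockout and 1020 in wild type skin, 2.41-fold higher, and its ratio was 29th from the highest among the 5518 genes above the floor on both arrays. It was at least 2-fold higher under each of the 7 alternatives that gave it a value, with log2 ratios from 1.10 to 1.27. Ivl has 1 probe set, which lay above every floor on both arrays. Only the pseudocount (1.10), quantile normalization (1.25) and the lowess correction (1.26) could therefore change its ratio. Rptn, which encodes repetin, a relative of filaggrin with an S100 domain, read 503.1 in knockout and 277.4 in wild type skin, 1.81-fold higher. Its log2 ratio was 0.52 when a pseudocount replaced the floor.

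The structural proteins of the outer layers differed less. Filaggrin (Flg), which bundles keratin filaments, read 39538 in knockout and 28475 in wild type skin, a log2 ratio of 0.47. Loricrin (Lor), the glycine-rich main component of the mature envelope, read 55045 in knockout and 44924 in wild type skin, a log2 ratio of 0.29. Scel, the gene of the envelope precursor sciellin, read 1564 in knockout and 1239 in wild type skin (0.34), and Krtdap, which encodes a secreted protein of differentiating keratinocytes, read 34135 and 33485 (0.03). Of these 4, only Flg and Scel exceeded 1 standard deviation between probe sets. Flg, Lor and Krtdap had high signals on arrays whose highest values were 67511 in knockout and 57173 in wild type skin. Whether ratios are compressed at such signals was not tested. The measured probe set of Lor has the suffix r and that of Krtdap the suffix s, so neither is a plain one. The suprabasal keratins of the same layers were split, with Krt1 at 0.28 and Krt10 at -0.18 on the log2 scale, and the 4 measured ones had a median of -0.05. Dmkn, the dermokine gene, read 161.0 in knockout and 66.5 in wild type skin and was at the floor on both arrays.

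The few enzymes and the 1 scaffold gene of envelope assembly that could be read were nearly level. Only 2 Tgm genes had a probe set under the rule, so the other transglutaminases were not measured. Tgm3, the epidermal transglutaminase, read 910.4 in knockout and 852.0 in wild type skin, and Tgm2, the widely expressed tissue transglutaminase, read 284.9 and 306.8, for log2 ratios of 0.10 and -0.11. Tgm2 lay close to the floor. Periplakin (Ppl), a plakin on which the envelope is laid down, read 10898 in knockout and 9809 in wild type skin. Casp14, the protease that helps to break down filaggrin, read 10474 in knockout and 9895 in wild type skin, a log2 ratio of 0.08.

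Slpi, an inhibitor of neutrophil elastase and of epidermal proteases, has 4 probe sets, and 3 of them were measured. The one with the highest mean read 1318 in knockout and 1123 in wild type skin, a log2 ratio of 0.23. Another read 364.3 in knockout and 38.7 in wild type skin, at least 1.48-fold higher because the wild type value lies under the floor, and the next read 278.6 and 191.3. The 3 measured probe sets had the same direction and the fourth, at 17.8 and 33.4, was at the floor. The Tgm, plakin, protease and inhibitor genes together gave no member past 1.5-fold by its representative probe set.

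The S100a genes, which encode small calcium-binding proteins, were mostly slightly lower in knockout skin. Of 11 genes 9 were measured, 7 with a log2 ratio below 0 and 2 above, of which S100a1 turned to -0.09 with quantile normalization, and the median was -0.12. S100a10, the binding partner of annexin A2, read 14230 in knockout and 18018 in wild type skin and had the lowest ratio of the family, -0.34, but its second probe set read 378.1 and 346.1, in the opposite direction. S100a6 read 9433 in knockout and 11318 in wild type skin, S100a14 2600 and 3162, and S100a4, known from fibroblasts and motile cells, 772.9 and 941.3, for log2 ratios of -0.26, -0.28 and -0.28. Except for S100a10 these lie within 1 standard deviation between probe sets. S100a13 read 2838 in knockout and 3081 in wild type skin, a log2 ratio of -0.12, while its other 2 measured probe sets were on the other side of 0.

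S100a3, known from the cuticle of the hair shaft, was the exception, at 3316 in knockout and 2137 in wild type skin, 1.55-fold higher. Its second probe set read 1611 in knockout and 1186 in wild type skin, 1.36-fold higher. Hair follicle markers were higher on the same array: 10 of 11 measured had a ratio above 0, with a median log2 ratio of 0.35, a summed signal of 26400 in knockout and 19395 in wild type skin, and Foxn1 at the floor on both arrays. This was not particular to hair. All 11 measured skeletal muscle markers (median 0.23) and 8 of 9 dermal matrix markers (0.27) were above 0. All 3 measured basal keratinocyte markers and all 3 measured Schwann cell markers were below 0. The part of the hair follicle markers in the S100a3 value was not tested. S100a1, known from striated muscle, read 453.8 in knockout and 445.1 in wild type skin. S100a16, at 2.2 and 3.5, and S100a5, at 126.5 and 42.9, were at the floor on both arrays.

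The alarmin pair S100a8 and S100a9, whose proteins form calprotectin and which are known to be abundant in neutrophils and in inflamed epidermis, did not stand out. S100a8 read 582.5 in knockout and 614.6 in wild type skin, and S100a9 292.4 and 316.5, for log2 ratios of -0.08 and -0.11. The other antimicrobial genes gave no common direction. Camp, which encodes cathelicidin, read 1075 in knockout and 1922 in wild type skin, 1.79-fold lower in the knockout, with log2 ratios from -0.87 to -0.71 over 7 alternatives. Only the pseudocount, quantile normalization and the lowess correction could change the Camp ratio. Defb1, a beta-defensin gene, read 1161 in knockout and 1416 in wild type skin (-0.29), and Lcn2, whose protein withholds iron from bacteria, read 310.3 and 303.1 (0.03).

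Most neutrophil markers were under the floor on both arrays. Of 12 neutrophil genes on the array 2 were measured, Elane with 517.2 in knockout and 380.9 in wild type skin and Csf3r with 1986 and 1501, and Mpo, Ltf, Ngp and Ly6g were under the floor. The summed signal of the list was 3086 in knockout and 2461 in wild type skin. Macrophage and monocyte markers were higher in knockout skin for all 9 measured, with a median log2 ratio of 0.58. Their part in the values of the antimicrobial genes was not tested.

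Most of the group lies in 1 cluster, and the genes with the highest ratios sit close together within it. Of the 39 genes 28 are on chromosome 3 in the RefSeq annotation, from S100a1 to S100a10, a span that holds 70 protein-coding genes. Sprr3 and Sprr1a are next to each other, and Ivl follows with 1 protein-coding gene in between. All 3 members at least 2-fold higher belong to this run, whereas Sprr1b, the next gene on the other side, had a log2 ratio of 0.15. Rptn and Flg lie further along, and the S100a genes at both ends had ratios from -0.34 to 0.63. The 24 measured members on chromosome 3 had a median log2 ratio of 0.03, with 13 above 0, and the 10 measured members elsewhere had a median of 0.06, with 7 above 0. Within the span 2 measured genes are not members, Crct1 with 36572 in knockout and 30670 in wild type skin and Tchh, the trichohyalin gene, with 457.9 and 323.3.

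**Figure D3:**
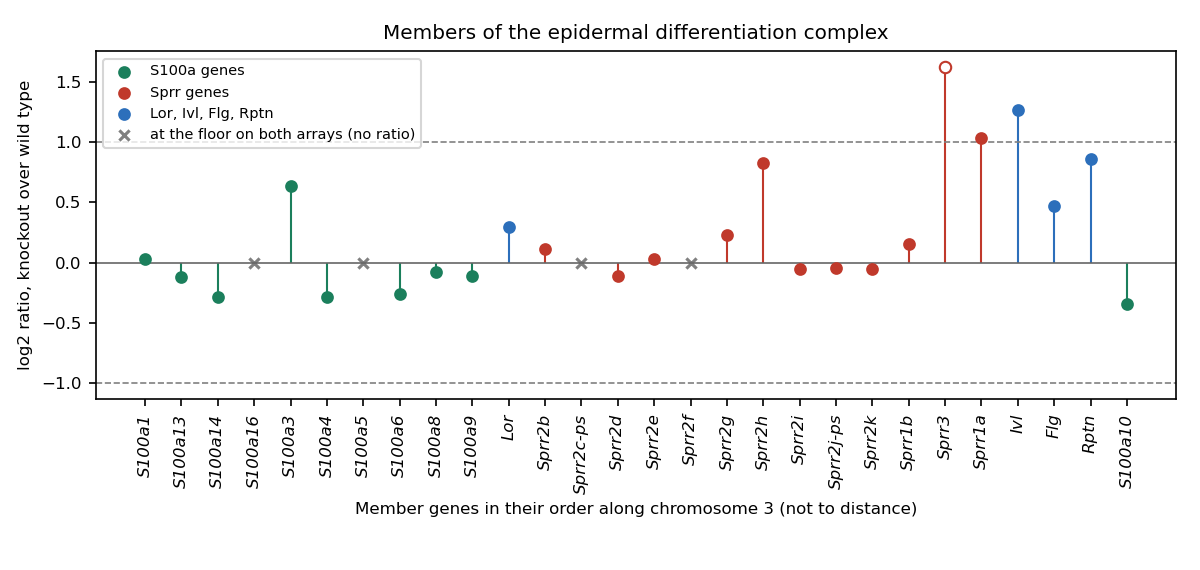
Log2 ratio of knockout over wild type for the 28 genes on chromosome 3, in the order of their annotated starts and not to distance, with dashed lines at 2-fold, crosses for genes at the floor and an open circle for the lower bound of Sprr3. The highest values, of Sprr3, Sprr1a and Ivl, stand side by side, while most S100a genes lie slightly under 0.

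Other barrier gene lists, made with earlier results of these data known, were read beside the group and share a few genes with it. Of 13 measured envelope partners and crosslink substrates, among them the member Ppl, 8 were above 0. The 1 gene at least 2-fold higher was Serpinb2, a protease inhibitor, with 10410 in knockout and 4415 in wild type skin, 2.36-fold higher. Corneodesmosome and desmosome genes had a median log2 ratio of 0.06 over 7 measured, with Dsc1 at 0.49 and Cdsn, the corneodesmosin gene, at 0.38. Genes of keratohyalin and filaggrin processing had a median of 0.08 over 11 measured, with the membrane protease gene Prss8 at 0.74. The member Casp14 is among these 11 and is itself the median gene, at 0.08. The 17 measured genes of the epidermal lipid barrier had a median log2 ratio of 0.12, from -0.85 for the desaturase gene Scd1 to 0.56 for the fatty acid transporter gene Slc27a4. Each of these medians lay close to that of all measured genes, 0.04, as did the one of the members. The 4 wound keratins went both ways, with a median log2 ratio of 0.96 and a range from -0.999 to 2.20. Krt16 read 2444 in knockout and 533.6 in wild type skin, Krt6a 3630 and 1361, and Krt6b 1643 and 1161. Krt17 read lower in knockout skin, 4934 against 9866 in wild type skin, on a probe set with the suffix f. With plain probe sets only, the median log2 ratio of the wound keratins was 1.415.

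Transcription factors of late keratinocyte differentiation were divided, 8 above and 9 below 0 with a median log2 ratio of -0.002. Elf3, an epithelial factor, read 896.1 in knockout and 277.5 in wild type skin, Nfe2l2, which encodes the stress factor NRF2, 1274 and 626.0, and Cebpb 8967 and 5598. Klf4, a factor needed for the barrier, read 14637 in knockout and 14659 in wild type skin. At the lower end the vitamin D receptor gene Vdr read 248.6 in knockout and 518.3 in wild type skin. Basal keratinocyte genes outside the keratins were lower, with Itgb4 at 1532 in knockout and 2254 in wild type skin and all 3 measured under 0.

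**Figure D4:**
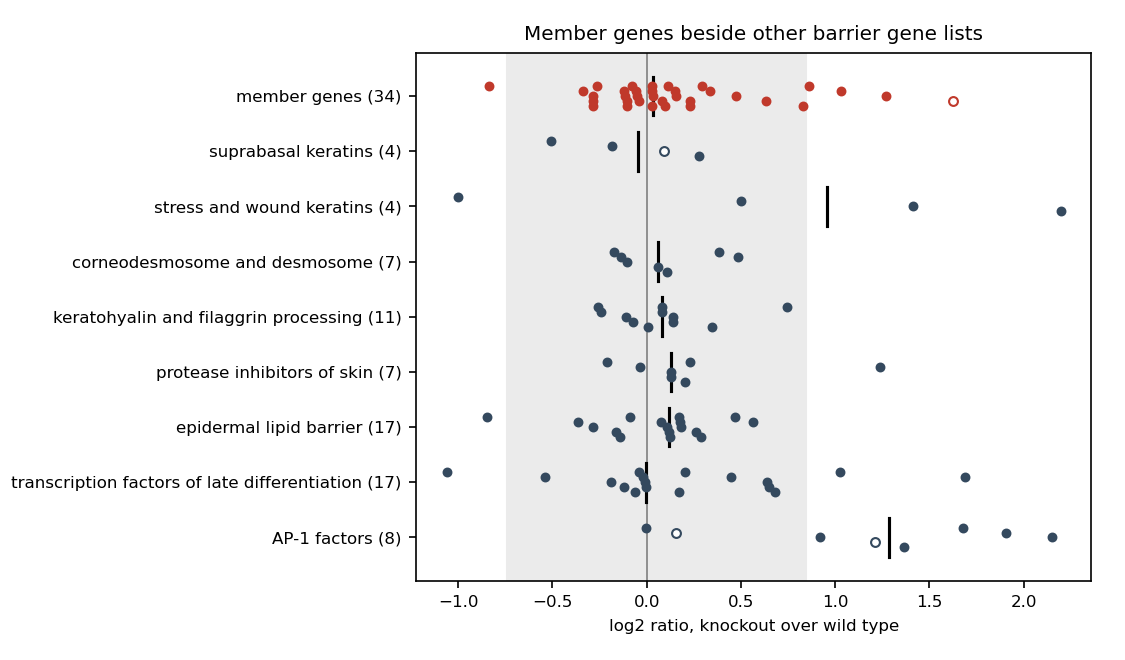
Log2 ratios of knockout over wild type for the 34 measured member genes (red) and for 8 other lists (dark), 1 point per gene, with a black bar at each median, open points for bounds and grey for the central 95% of all measured genes (-0.74 to 0.85). The member genes centre on 0 with a tail to the right, and the AP-1 factors (1.29) and the stress and wound keratins (0.96) have medians to the right of the grey range. Casp14 and Slpi are member genes that are also drawn in the other lists.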

How the data were processed

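Skin RNA of 6 knockout and of 6 wild type newborn mice was pooled by genotype and read on 1 array each. The authors deposited a linear intensity for every probe set; MAS5 is named in the submitters' processing notes, and its version, scaling target and detection calls are not given in the sources used here. Of 12422 non-control probe sets, 10833 have 1 gene symbol in the platform annotation, 396 several and 1193 none; 10817 of the first were matched to RefSeq (GRCm38.p6) by Entrez identifier and 0 were renamed.

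Both arrays were scaled to a common 2% trimmed mean. Values under the 40th percentile of both arrays together (246.7) were raised to it, and log2 was taken. The probe set with the highest mean represented a gene. With 1 array per group no test, error or interval can be had, and the number of arrays limits the precision. Genes were called by size, at least 2-fold, and beside 1.5-fold. The members, lists and naming rule were chosen with earlier results of these data known. Full values were to be given for members at least 1.5-fold different, the 10 with the highest mean and those above the floor on 1 array; the other members' signals were added. The steps were tested on simulated data. 8 alternatives were tried. Python 3.11.15, pandas 2.3.3 and statsmodels 0.14.6 were used.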

Additional observations from a re-analysis of the deposited data

How the results depend on the processing

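Sprr3, Ivl and Sprr1a were higher in knockout skin under each of the 7 alternatives for which their ratios were recomputed. The other alternative, genes above the floor on both arrays only, changes no ratio and drops Sprr3. Ivl, Sprr1a and Camp each have 1 plain probe set, above every floor on both arrays. Their ratios could change only with a pseudocount, quantile normalization or the lowess correction. With plain probe sets only, 22 members were measured, 12 had a log2 ratio above 0 and the Sprr median was 0.93, because probe sets with a suffix leave the count. Under 3 alternatives 2 members were at least 2-fold higher: a floor at the 60th percentile leaves out Sprr3 (bound of 0.20), a pseudocount leaves out Sprr1a (0.96), and keeping genes above the floor on both arrays removes Sprr3. The other alternatives gave 3 members, and 0 members were at least 2-fold lower under any alternative. The share of all measured genes at least 2-fold higher was 2.90% for a floor at the 25th percentile and 0.653% for a pseudocount, against 1.54%; the share at least 2-fold lower was 1.33% and 0.251% there and 0.445% for a floor at the 60th percentile, against 0.703%. Of 34 members 29 kept their sign under every alternative that gave them a value. The exceptions were Krtdap (-0.06), Lcn2 (-0.12), S100a1 (-0.09) and Sprr2i (0.01) with quantile normalization, the last 3 also with the lowess correction (-0.07, -0.10 and 0.01), and S100a13 (0.05) with the mean over probe sets. No paired analysis was possible because each group is 1 pooled array. Signals near the floor limit the values of Rptn, Tgm2, S100a9, Sprr2k and Lcn2. The log2 ratio of Rptn, 0.86, was 0.52 with a pseudocount, and Rptn was not measured with a floor at the 60th percentile.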

Other observations

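Probe sets of the same gene read far apart for several members. Lor read 55045 in knockout and 44924 in wild type skin on one probe set and 22.2 and 18.4 on the other, and Flg read 39538 and 28475 on one and 3.8 and 2.0 on the other. S100a14 read 2600 in knockout and 3162 in wild type skin on one probe set and 185.1 and 120.5 on the other. The second probe set of Lcn2 read 144.3 in knockout and 76.1 in wild type skin, under the floor on both arrays, where the first read 310.3 and 303.1. A pair of S100a1 probe sets under the floor read 92.3 and 39.5 in knockout skin, against 32.5 and 23.7 in wild type skin.

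Genes of calcium handling and partners of S100 proteins had 5 of 10 measured members above 0, with a median log2 ratio of 0.10. Plcd1, a phospholipase C gene, read 1238 in knockout and 810.5 in wild type skin. Anxa2, the partner of S100a10, read 24104 in knockout and 25249 in wild type skin, a log2 ratio of -0.07. Ager, which encodes a receptor for several S100 proteins, read 343.1 in knockout and 210.2 in wild type skin, at least 1.39-fold higher because the wild type value lies under the floor.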
